A study of Arabidopsis thaliana with 64 samples.

Results

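The transcriptome of wild type (WT) *Arabidopsis thaliana* roots, accession Col-0, was compared between phosphate (Pi) deficiency and Pi sufficiency under white light. All arrays labelled as WT, root and white light were taken, which gave 12 of the 64 arrays of the series. They were the controls of the *hy5* mutant and of the BBX32SRDX plants, with 3 Pi-deficient and 3 Pi-sufficient arrays in each of the 2 control sets, and neither control set carried a mutation or a transgene. Plants were 4 weeks old, grown on agar at 23 °C with 16 h of light and 8 h of dark per day, at 625 µM Pi (Pi-sufficient) or 10 µM Pi (Pi-deficient). The RNA was that of whole roots, so fewer cells of a type and less RNA per cell cannot be told apart. Each Agilent array measured the Cy3-labelled RNA of 1 sample, and the methods call the replicates biological.

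A signal is given here as log2 relative to the 75th percentile of its array, so that 75% of the probes of an array lie below 0. Between 74.0% and 83.5% of the probes were well above background on the 12 root arrays. Replicates of a group correlated across genes with r between 0.984 and 0.992, and the median SD of a gene within a group was between 0.114 and 0.176 (log2). Of the 8 genes taken as root markers, 8 were above background on every root array, and 8 had a lower mean in WT shoots, by a median of 4.49 on the log2 scale. The 10 markers of green tissue were also above background on every root array, and their mean per array lay between -0.98 and 1.19 in roots and between 5.82 and 6.87 in shoots. The 2 control sets were read with different versions of the scanner software, and version cannot be told apart from set. On every slide the Pi-sufficient WT array held the same place and the Pi-deficient WT array the next, so place cannot be told apart from Pi level.

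Plants short of Pi induce a common set of genes, the phosphate starvation-induced (PSI) genes, through the transcription factor PHR1, which SPX proteins hold back while Pi is ample. PSI genes encode Pi transporters, phosphatases and nucleases that free Pi from organic compounds, and enzymes that replace phospholipids with galactolipids and sulfolipids. In the root, the response is also known to meet iron nutrition, root hair growth and the growth of the primary root.

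With the control set as a factor, 1429 of 21273 genes tested (6.72%) differed between Pi levels by more than 2-fold at a Benjamini-Hochberg adjusted p under 0.05 from limma, and such genes are named called. Of these, 816 (3.84%) rose and 613 (2.88%) fell under Pi deficiency. Fitted alone, the *hy5* control set gave 1441 calls (6.77%), 832 higher (3.91%) and 609 lower (2.86%). The *BBX32SRDX* control set gave 1219 (5.73%), 681 higher (3.2%) and 538 lower (2.53%). Called in the same direction in both sets were 739 genes (3.47%), 473 higher (2.22%) and 266 lower (1.25%), and these are the repeated genes below. They made up 51.3% of the calls of the *hy5* set and 60.6% of those of the *BBX32SRDX* set, and 0 genes were called in opposite directions. The larger number of higher genes went with the fold limit, since at the adjusted p alone 3438 genes rose and 3759 fell in the fit of both sets, and 930 and 929 repeated. The counts also leaned on single arrays. Without Pi-deficient replicate 2 of the *BBX32SRDX* set, that set gave 638 calls and 448 genes repeated. Without Pi-deficient replicate 1 of both sets, arrays that stood apart in green tissue genes as described below, 835 genes repeated, 423 higher and 412 lower, and 615 of them were among the 739.

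The repeated genes that rose did so by a median of 1.86 on the log2 scale, and those that fell had a median of -1.58, while the median of all genes tested was 0.02. With genes at background in a group taken at their bound against the level of detection, the medians were 1.81 and -1.58, 94 of the 473 higher genes rose by more than 3 on the log2 scale and 20 by more than 5. Of the 266 lower genes, 26 fell by more than 3 and 3 by more than 5. The 6 Pi-deficient arrays lay wholly above the 6 Pi-sufficient arrays for 436 of the repeated higher genes and wholly below for 218 of the lower ones. Over all genes tested this held for 1374 (6.46%) and 1333 (6.27%). The difference between the sets was itself tested, and 6 genes (0.0282%) passed. Of these, *SK12* and the UMAMIT transporter gene *UMAMIT17* were repeated genes, with the same direction in both sets and unequal size.

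**Figure D1:**
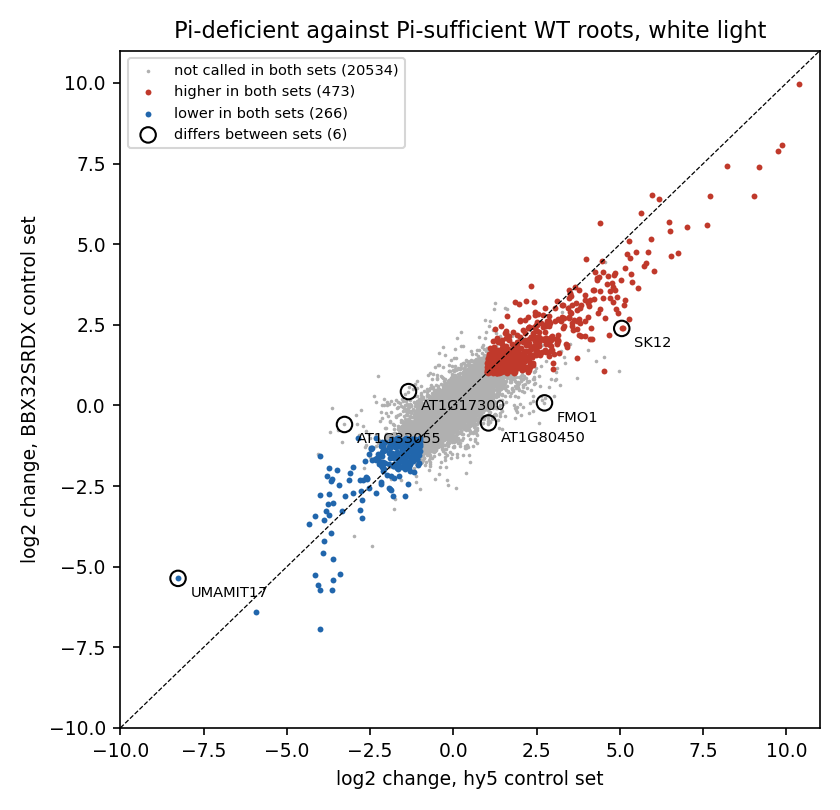
Log2 change of each gene tested between Pi-deficient and Pi-sufficient WT roots in the hy5 control set (x axis) and the BBX32SRDX control set (y axis), 3 arrays against 3 in each; the dashed line marks equal change. The 473 genes higher in both sets and the 266 lower in both are coloured, and the 6 circled genes differed between the sets.

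The repeated gene with the largest rise was *PECP1* (AT1G17710), which encodes a phosphatase that releases Pi from phosphocholine and phosphoethanolamine. Its signal lay between 2.07 and 3.27 (median 2.67) on the Pi-deficient arrays and between -9.16 and -6.12 (median -7.53) on the Pi-sufficient arrays, of which 2 of 6 were above background. The log2 change was 10.18 (SE 0.44, adjusted p = 1.71e-07), with 10.37 in the *hy5* set and 9.98 in the *BBX32SRDX* set. Next came AT3G25240, with a log2 change of 8.97 (SE 0.46), and *PRX52* (AT5G05340), a class III peroxidase. *PRX52* lay between -0.02 and 1.55 under Pi deficiency and between -9.59 and -6.93 under Pi sufficiency, a log2 change of 8.82 (SE 0.51, adjusted p = 6.31e-07). The peroxidase was thus above the array's 75th percentile on most Pi-deficient arrays, while 3 of 6 Pi-sufficient arrays showed it above background. *IPS1* is described below. AT2G34210 rose by 7.81 and the transcript AT5G53048, which is annotated as a long non-coding RNA, by 7.75 on the log2 scale.

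Of the 12 genes with the highest fitted change, 3 were not well above background on any Pi-sufficient array, so that their rise is given as a bound against the level of detection and has no place in the order. The defensin gene *LCR67* (AT1G75830) was at least 51.8-fold higher under Pi deficiency (mean signals -1.95 and -9.04). AT1G53870 was at least 23.8-fold higher (means -3.07 and -9.36), and the purple acid phosphatase gene *PAP14* (AT2G46880) at least 14.8-fold higher (means -3.75 and -9.83). The other members of the 12 were *SPX3*, described below, the jasmonate-regulated *JRG21* (AT3G55970) with a log2 change of 6.27, and the glutathione transferase gene *GSTU11* (AT1G69930) with 6.25 (SE 0.27, adjusted p = 1.71e-07). *GSTU11* was above background on 3 of 6 Pi-sufficient arrays. Of these 12 genes, 0 passed the test of the difference between the sets by limma, in which 1888 of all genes had an unadjusted p under 0.05. AT3G25240 had 9.87 in the *hy5* set and 8.07 in the *BBX32SRDX* set.

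The largest fall was that of *UMAMIT17* (AT4G08300), of a family of amino acid transporters. Its signal dropped from between 0.94 and 2.37 (median 1.98) to between -6.11 and -3.96 (median -4.99), a log2 change of -6.82 (SE 0.45, adjusted p = 1.62e-06). The fall was larger in the *hy5* set (-8.27) than in the *BBX32SRDX* set (-5.36), and this difference passed the test of the sets (adjusted p = 0.00581). *IRT1* (AT4G19690), the main ferrous iron transporter of the root surface, followed with -6.17 (SE 0.39, adjusted p = 1.31e-06). Its Pi-sufficient arrays lay between -2.65 and -0.17 and its Pi-deficient arrays between -9.15 and -6.77, where 2 of 6 were above background.

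Among the remaining 10 genes with the largest falls were 3 cytochrome P450 genes. *CYP93D1* (AT5G06900) had a log2 change of -5.48 (SE 0.74, adjusted p = 0.000212), *CYP712A1* (AT2G42250) of -4.82 and *CYP76G1* (AT3G52970) of -4.51. *CYP712A1* had a median signal of 1.68 under Pi sufficiency and -2.64 under Pi deficiency. The closely placed genes AT1G52820 and AT1G52790 fell by 4.87 and 4.69 on the log2 scale. *SLAH1* (AT1G62280), an anion channel homologue of the root vasculature, fell by 4.19, and the sugar transporter gene *SWEET3* (AT5G53190) had -4.00, above background on 2 of 6 Pi-deficient arrays. AT2G14247 (-4.70), AT1G47400 (-4.31) and AT1G15540 (-4.03) completed the 12. The groups of 6 did not overlap for any of these 24 genes, since the choice of the highest and lowest genes required it.

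The regulators of Pi signalling were split. Of 16 signalling genes tested (of 17 listed), 6 rose and 1 fell in both sets, and the median of the list was 0.16. For this and the later lists, the shares over all genes tested were 2.22% higher and 1.25% lower in both sets. Of all 21273 genes, 11287 had a positive and 9986 a negative log2 change. *PHR1* (AT4G28610) was level, between 0.00 and 0.23 on Pi-deficient and between 0.02 and 0.24 on Pi-sufficient arrays, and its log2 change was 0.01 (SE 0.07, adjusted p = 0.942). The non-coding RNA gene *IPS1* (AT3G09922), whose transcript sequesters the microRNA miR399, lay between 0.24 and 1.92 (median 1.09) under Pi deficiency and between -8.66 and -5.82 (median -7.16) under Pi sufficiency. Its log2 change was 8.28 (SE 0.44, adjusted p = 4.08e-07), with 4 of 6 Pi-sufficient arrays above background. Its relative *AT4* (AT5G03545) was already above the 75th percentile of every array under Pi sufficiency, with a median of 4.45 and a highest array of 5.41, and reached between 6.47 and 7.05, a log2 change of 2.37 (SE 0.25, adjusted p = 4.76e-05).

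The SPX genes, which encode Pi sensors that inhibit PHR1, rose unequally. *SPX3* (AT2G45130) rose by 6.61 (SE 0.36), from between -6.17 and -4.58 to between 0.35 and 2.05. *SPX1* (AT5G20150) rose by 4.29 (SE 0.29), from between -0.37 and 1.27 to between 4.31 and 4.78. *SPX2* (AT2G26660) rose by 1.59 (SE 0.09) on the same scale, and *SPX4* (AT5G15330) had -0.21 (SE 0.10) and was not called. The ubiquitin ligase gene *NLA* (AT1G02860), whose product marks Pi transporters for removal, fell by 1.26 (SE 0.12, adjusted p = 2.63e-05) with -1.29 and -1.22 in the sets. *PHO2* (AT2G33770), the target of miR399 that acts with it, had -0.24 (SE 0.13, adjusted p = 0.184), and its groups of 6 arrays overlapped, from 0.86 to 1.77 and from 0.76 to 2.45. Within the *hy5* set its Pi-deficient arrays were lower (1.60 to 1.77 against 1.79 to 2.45), while those of the *BBX32SRDX* set overlapped. *PHF1* (AT3G52190), which helps Pi transporters leave the endoplasmic reticulum, rose by 1.44 (SE 0.10). The transcription factor genes *WRKY75* (0.16) and *ZAT6* (0.16) were not called.

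**Figure D2:**
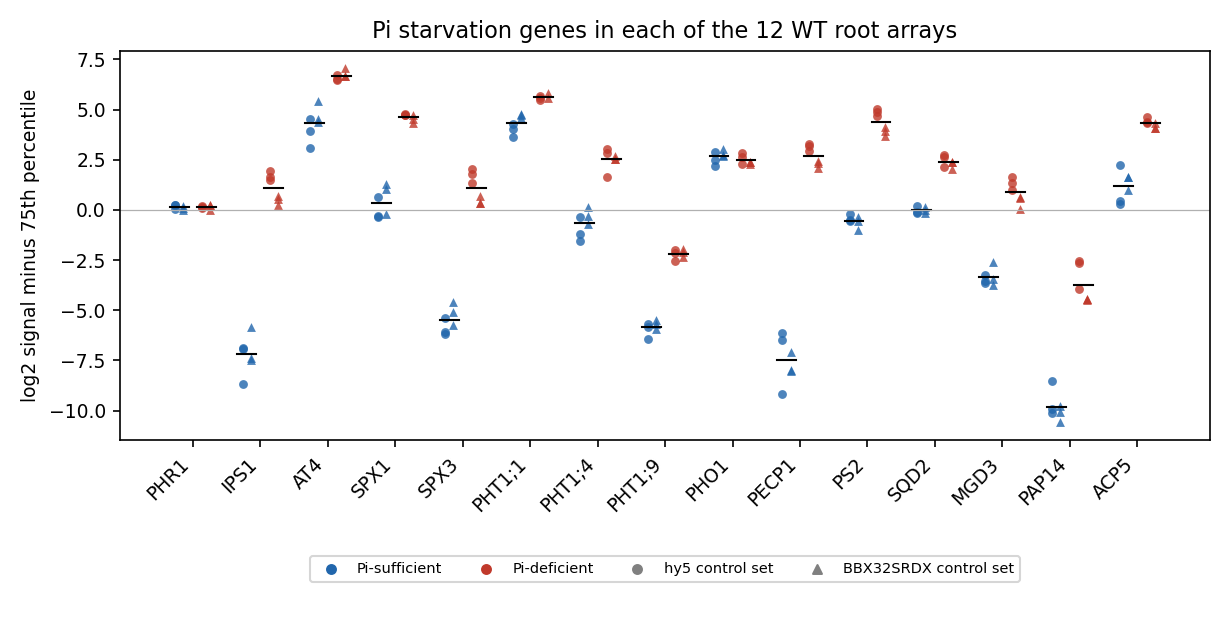
Signal of 15 genes of Pi nutrition on each of the 12 WT root arrays (y axis, log2 relative to the array's 75th percentile); colours give the Pi level, symbols the control set and bars the mean of 6 arrays. IPS1, SPX3, PECP1 and PAP14 lay between -10.58 and -4.58 under Pi sufficiency, while PHR1 and PHO1 overlapped between Pi levels.

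Of 19 transport genes tested (of 21 listed), 9 rose in both sets and 0 fell, and the median of the list was 1.33. The *PHT1* genes encode the Pi importers of the plasma membrane. *PHT1;1* (AT5G43350) rose from between 3.64 and 4.76 to between 5.47 and 5.81, a log2 change of 1.33 (SE 0.14, adjusted p = 7.17e-05), with its spot on Pi-deficient replicate 3 of the *BBX32SRDX* set dropped as an outlier. *PHT1;2* (AT5G43370) rose by 1.96 and is nearly identical in sequence to *PHT1;1*, so that their probes may share signal. *PHT1;4* (AT2G38940) rose by 3.20 (SE 0.28), from between -1.56 and 0.16 to between 1.63 and 3.02. *PHT1;7* (AT3G54700) had a log2 change of 2.66 and *PHT1;9* (AT1G76430) of 3.67 (SE 0.15, adjusted p = 1.35e-07), the latter from between -6.45 and -5.49 to between -2.53 and -1.96. *PHT1;5* (AT2G32830) was called in the fit of both sets, with 2.13, and in the *hy5* set, but not in the *BBX32SRDX* set (1.17, adjusted p = 0.0803).

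The exporter *PHO1* (AT3G23430), which loads Pi into the xylem, had a log2 change of -0.21 (SE 0.14, adjusted p = 0.281), and its arrays overlapped, with medians of 2.38 under Pi deficiency and 2.71 under Pi sufficiency. Its homologue *PHO1;H1* (AT1G68740) rose by 2.26 (SE 0.13), from between -1.77 and -1.28 to between 0.37 and 1.13. The mitochondrial carrier gene *PHT3;2* (AT3G48850) rose by 3.08. In the *G3Pp* family, which is named for glycerol-3-phosphate permeases, *G3Pp1* (AT3G47420) rose by 3.92 (SE 0.37, adjusted p = 2.11e-05) and *G3Pp3* (AT1G30560) by 2.69, while *G3Pp4* had -0.57 and *G3Pp5* -0.18. Members of 1 family thus stood on both sides of 0.

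Lipid remodelling genes had the highest median of the lists, 1.35, and 11 of 23 rose in both sets while 0 fell. The sulfolipid enzymes rose together, with *SQD1* (AT4G33030) at a log2 change of 2.07 (SE 0.13), *SQD2* (AT5G01220) at 2.41 (SE 0.12, adjusted p = 3.16e-07) and *UGP3* (AT3G56040) at 1.59. *SQD2* moved from between -0.18 and 0.18 to between 2.04 and 2.74. For galactolipids, *MGD3* (AT2G11810) rose by 4.23 (SE 0.26) and *MGD2* (AT5G20410) by 2.62 (SE 0.13). *MGD1* (AT4G31780), which makes the bulk of the galactolipid of chloroplasts, had 0.31 (SE 0.08, adjusted p = 0.0102), below the fold limit. *DGD1* (0.80) and *DGD2* (0.89) were likewise below that limit, although neither gene's groups overlapped.

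Phospholipid-degrading enzymes formed the other part of the list. *PLDZ2* (AT3G05630), a phospholipase D, rose by 3.60 (SE 0.15, adjusted p = 1.71e-07), and *NPC4* (AT3G03530), a non-specific phospholipase C, by 3.16 (SE 0.40). *PLDZ1* (0.04) and *NPC3* (-0.21) were not called. The glycerophosphodiester phosphodiesterase genes *GDPD1* (AT3G02040) and *GDPD3* (AT5G43300) rose by 2.92 and 1.76. *PS2* (AT1G73010), a phosphatase gene related to *PECP1*, went from between -1.01 and -0.19 to between 3.66 and 5.04, a log2 change of 4.93 (SE 0.17, adjusted p = 8.26e-08), with 5.29 and 4.56 in the sets.

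Purple acid phosphatases, many of them secreted, release Pi from organic phosphate, and RNases free it from RNA. Of 27 such genes tested (of 33 listed), 7 rose and 1 fell in both sets, with a list median of 0.30. *PAP14* is given above, and *PAP23* (AT4G13700) rose by 5.29 (SE 0.40, adjusted p = 4.45e-06), with 1 of 6 Pi-sufficient arrays above background. *ACP5* (AT3G17790) went from between 0.29 and 2.25 to between 4.08 and 4.63, an 8.59-fold rise (adjusted p = 3.00e-05), and *PAP22* (AT3G52820), *PAP1* (AT1G13750) and *PAP12* (AT2G27190) rose by 1.94, 1.54 and 1.27. *PAP12* lay above the 75th percentile on every array, with medians of 3.71 and 2.39. *RNS1* (AT2G02990), the starvation-induced RNase, rose by 2.49 (SE 0.19), whereas *RNS2* had 0.57 and was not called. *PAP3* (AT1G14700) fell by 1.16 (SE 0.11, adjusted p = 2.21e-05). *PAP10* (AT2G16430), a phosphatase of the root surface, had 0.85 (SE 0.12), below the fold limit, and *PAP26* had -0.17.

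The glycolytic bypass and the arrest of root growth also belong to the classical Pi response. Of 8 genes of the glycolytic bypass and organic acid release, whose median was 0.86, 2 rose in both sets, both of them kinases of phosphoenolpyruvate carboxylase, *PPCK1* (AT1G08650, 1.55) and *PPCK2* (AT3G04530, 1.45). The carboxylase genes *PPC1* and *PPC3* had 0.89 and 0.83, and the groups of 6 arrays did not overlap. The malate channel gene *ALMT1* had 0.23. Of 6 genes tied to the arrest of the primary root under low Pi, 0 were called in the fit of both sets by limma, and 2 had an adjusted p under 0.05. These were *LPR1*, *LPR2*, *PDR2*, *STOP1*, *ALMT1* and *CLE14*, with log2 changes from -0.02 to 0.49.

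**Figure D3:**
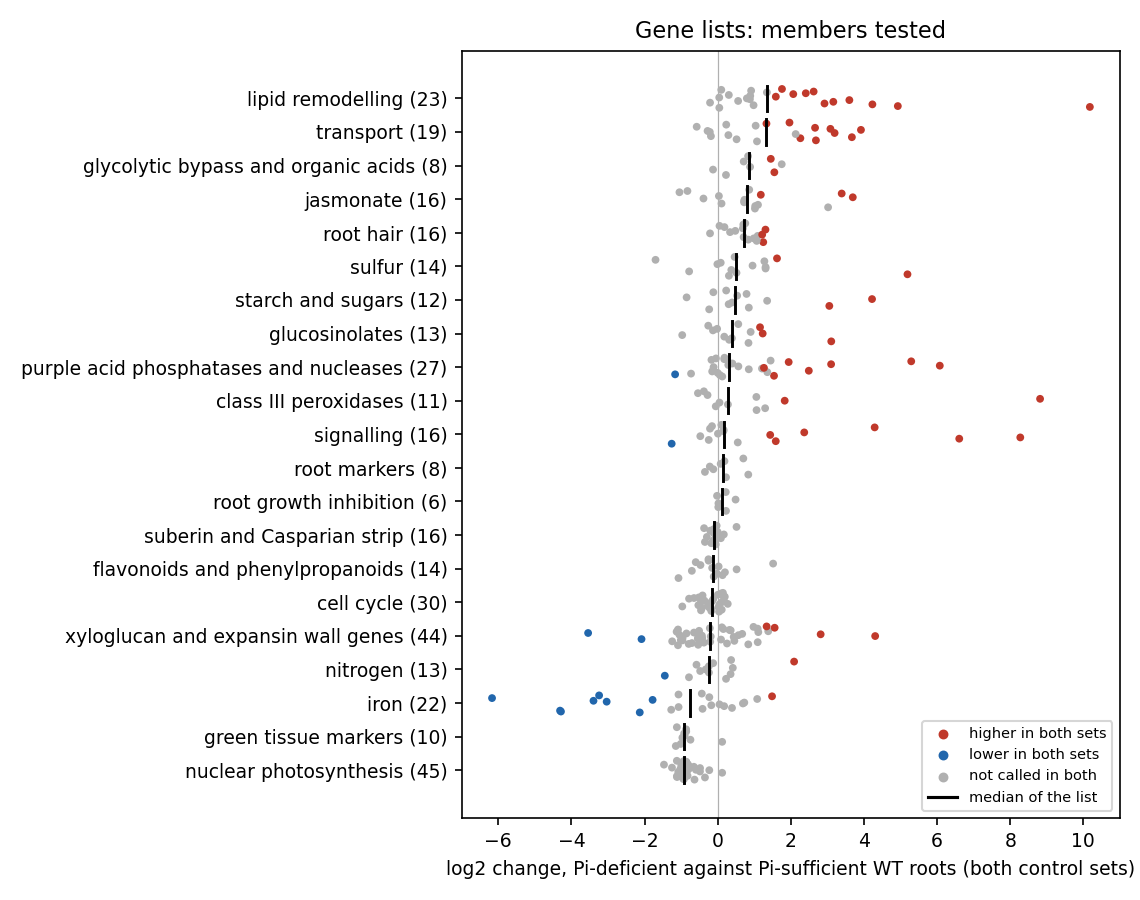
Log2 change of every tested member of 21 gene lists in WT roots (x axis, Pi-deficient against Pi-sufficient, fit of both control sets); the number tested is in parentheses, colours mark genes called in both sets and bars mark the median of a list. Lipid remodelling and transport had medians of 1.35 and 1.33, and iron, green tissue markers and nuclear photosynthesis had -0.75, -0.91 and -0.92.

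With all arrays in, iron was the list with most genes lower in both sets. Without Pi-deficient replicate 1 of both sets, nuclear photosynthesis had more, as described below. Of 22 tested (of 26 listed), 8 fell and 1 rose in both sets, and the median was -0.75. Besides *IRT1*, the ferric reductase gene *FRO2* (AT1G01580) fell by 2.13 (SE 0.32, adjusted p = 0.000424), from between -2.40 and 0.12 to between -4.04 and -3.22. Transcription factor genes of the subgroup that partners FIT fell together. *BHLH38* (AT3G56970) had -3.04, *BHLH39* (AT3G56980) -3.40 and *BHLH101* (AT5G04150) -3.24 (SE 0.25, adjusted p = 4.62e-06). *BHLH38* and *BHLH39* lie side by side and are similar in sequence, so their probes may share signal. *BHLH101* was above background on every array, between -2.94 and -1.58 under Pi sufficiency and between -6.40 and -5.21 under Pi deficiency.

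*FIT* (AT2G28160), the transcription factor needed for *IRT1* and *FRO2* expression, moved less than either target. It lay between 0.09 and 0.80 under Pi sufficiency and between -0.21 and 0.28 under Pi deficiency, a log2 change of -0.41 (SE 0.12, adjusted p = 0.0234), below the fold limit. The iron transporter gene *OPT3* (AT4G16370) fell by 1.78 (SE 0.17). The neighbouring genes AT1G47395 and AT1G47400 fell by 4.29 and 4.31, and 4 of 6 and 1 of 6 of their Pi-deficient arrays were above background. For AT1G47395, the spot on Pi-sufficient replicate 2 of the *hy5* set was dropped as an outlier. Ferritin stores iron, and the ferritin gene *FER1* (AT5G01600) rose by 1.49 (SE 0.13, adjusted p = 9.58e-06), from between 2.28 and 2.84 to between 3.68 and 4.29. *FER3* had 0.73 and *FER4* 0.39 (1 Pi-sufficient spot dropped as an outlier), both below the fold limit. *IRT2* (AT4G19680), a neighbour of *IRT1*, went the other way from *IRT1*, with 1.08 (SE 0.19, adjusted p = 0.00103) in the fit of both sets. It was not a repeated gene, since the *hy5* set gave 0.95, and without Pi-sufficient replicate 1 of the *BBX32SRDX* set it was not called. *PYE* (0.05) and *BTS* (-0.17), regulators of the iron response, were not called.

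**Figure D4:**
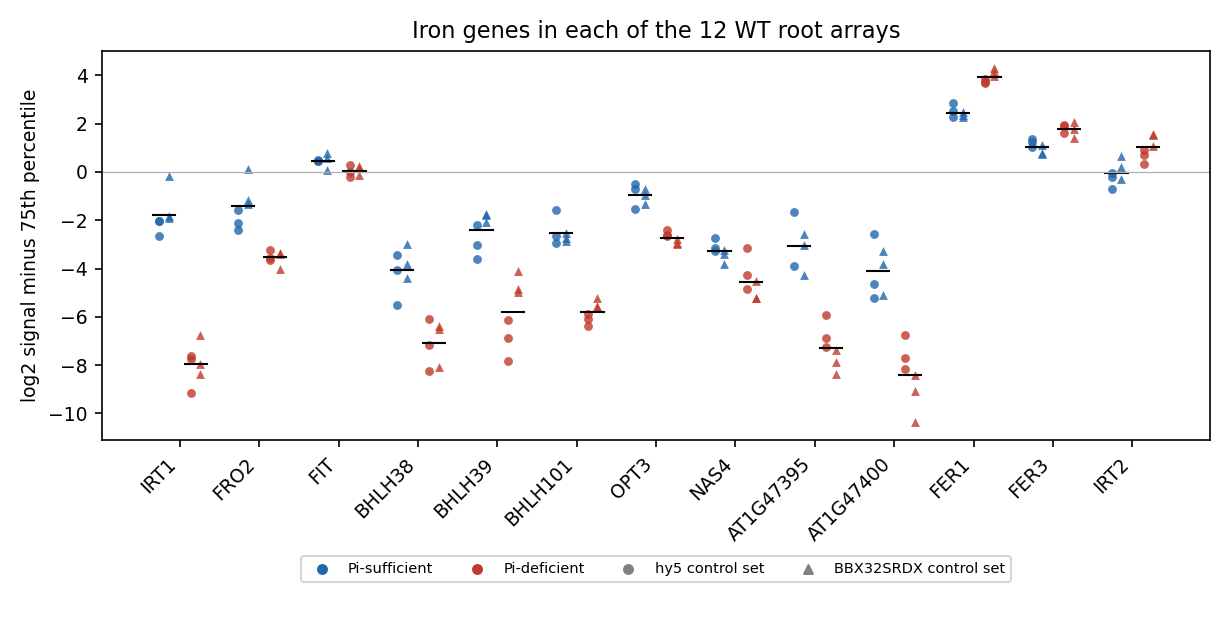
Signal of 13 iron genes on each of the 12 WT root arrays (y axis, log2 relative to the array's 75th percentile), with colours for the Pi level, symbols for the control set and bars for the mean of 6 arrays. IRT1 showed the largest fall, while FER1 was higher on every Pi-deficient array than on any Pi-sufficient array.

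Transport of other nutrients changed in single members. Of 13 nitrogen genes tested (of 15 listed), 1 rose and 1 fell in both sets, against 2.22% and 1.25% of all genes tested. The median was -0.24. The 1 higher and the 1 lower gene were nitrate transporter genes of the xylem with opposite known roles. *NRT1.5* (AT1G32450), which loads nitrate into the xylem, fell by 1.45 (SE 0.18), and *NRT1.8* (AT4G21680), which retrieves it, rose by 2.09 (SE 0.22, adjusted p = 4.85e-05). Of 14 sulfur genes, 2 rose in both sets, and the median was 0.49. The sulfate transporter gene *SULTR1;3* (AT1G22150), known from phloem, rose by 5.19 (SE 0.31, adjusted p = 9.22e-07), from between -7.32 and -4.09 to between -2.16 and 0.27. *LSU2* (AT5G24660), a gene responsive to low sulfur, rose by 1.62 (SE 0.28), but its groups overlapped, and the root uptake transporter *SULTR1;2* had 0.37 (SE 0.33, adjusted p = 0.412).

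Root hair genes were mostly above 0. Of 16 tested, 3 rose in both sets, 15 had a positive log2 change and the median was 0.73. Over all genes tested, 2.22% rose in both sets and 11287 of 21273 had a positive log2 change. The transcription factor gene *RHD6* (AT1G66470), which starts hair growth, rose by 1.22 (SE 0.08, adjusted p = 1.25e-06), from between -1.05 and -0.12 to between 0.34 and 0.93. The wall protein gene *PRP3* (AT3G62680) rose by 1.31 and *ETC1* (AT1G01380), a patterning gene, by 1.25. *RSL4* (AT1G27740), a regulator of hair length downstream of RHD6, had 0.99 (SE 0.14, adjusted p = 0.000312), just under the fold limit. The groups of *RSL4* did not overlap, and it passed the limit in 5 of the fits with 1 array left out.

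Among cell wall genes of the xyloglucan endotransglucosylase (XTH) and expansin families, 44 of 60 were tested, 4 rose and 2 fell in both sets, and the median was -0.21. The expansin gene *EXPA12* (AT3G15370) rose by 4.31 (SE 0.34, adjusted p = 6.35e-06), from between -5.93 and -4.36 to between -2.15 and 0.17. *XTH11* (2.82), *XTH20* (1.56) and *XTH13* (1.34) also rose. *XTH21* (AT2G18800) fell by 2.08, and *XTH2* (AT4G13090) was not above background on any Pi-deficient array and was at least 4.83-fold lower. Of 11 class III peroxidase genes tested (of 13 listed), 2 rose in both sets, *PRX52* and *Prx37* (AT4G08770, 1.83), and the list median was 0.28. In the fit of both sets, 5 were called higher. The list held only genes with a PRX or PER number among their names, a part of the family. The paper examined the whole family and reports further members induced by Pi deficiency in WT roots. Suberin and Casparian strip genes differed little, with log2 changes from -0.37 to 0.52 for 16 genes, of which 0 were called and 2 had an adjusted p under 0.05.

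Among jasmonate genes, 3 of 16 tested (of 17 listed) rose in both sets, and the median was 0.80. The biosynthesis gene *AOC1* (AT3G25760) rose by 3.69 (SE 0.30, adjusted p = 7.51e-06) and *AOC3* (AT3G25780) by 1.18. The repressor gene *JAZ10* (AT5G13220), itself induced by jasmonate, went from between -3.33 and -2.07 to between -0.59 and 1.37, a rise of 3.39 (SE 0.35). *MYC2*, which encodes the main transcription factor of the pathway, had 0.11, and the storage protein gene *VSP1* had -0.83. In the fit of both sets, 6 jasmonate genes were called higher and 1 lower. The lower one was *VSP2* (-1.04), which was not a repeated gene. Of 13 glucosinolate genes tested (of 14 listed), 3 rose in both sets with a list median of 0.39, all of the methionine-derived branch, *CYP79F1* (AT1G16410, 3.11), *BCAT4* (AT3G19710, 1.23) and *MAM1* (AT5G23010, 1.16). *CYP79F1* resembles *CYP79F2* (0.84, not called) closely enough for their probes to share signal. The tryptophan-derived branch had *CYP79B2* at -0.01 and *CYP79B3* at -0.97, neither called.

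Of 12 starch and sugar genes, 2 rose in both sets, and the median was 0.46. The glucose-phosphate translocator gene *GPT2* (AT1G61800) rose by 3.05 (SE 0.34) and the beta-amylase gene *BAM5* (AT4G15210) by 4.22 (SE 0.29, adjusted p = 1.98e-06). In flavonoid and phenylpropanoid synthesis, 0 of 14 genes tested (of 20 listed) repeated, and *CHS*, *F3H* and *FLS1* had log2 changes of -0.25, -0.15 and -0.25. The list median was -0.13. Of 30 cell cycle genes tested, 0 were called in the fit of both sets by limma and 10 had an adjusted p under 0.05, with a range from -0.97 to 0.28. The list median was -0.16, with 13 genes positive and 17 negative. B-type cyclin *CYCB1;1*, a marker of dividing cells, had 0.20. It lay at -0.27 on Pi-deficient replicate 2 of the *hy5* set and between -1.58 and -1.05 on the other Pi-deficient arrays. All other B-type cyclins tested were negative, from -0.51 for *CYCB2;2* to -0.17 for *CYCB3;1*.

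Nuclear genes of photosynthesis were detected in these roots, and their calls depended on 1 Pi-deficient array in each set. Of 45 tested, 44 had a negative log2 change, 31 had an adjusted p under 0.05, 9 were called in the fit of both sets and 0 were called in both sets, and the median was -0.92. The largest change was that of *PSBQA*, a subunit of photosystem II, with -1.47. In the *hy5* set the mean of the list was -0.31 on Pi-deficient replicate 1 and -1.15 and -1.72 on the other Pi-deficient arrays, against -0.20 to -0.02 on the Pi-sufficient arrays. In the *BBX32SRDX* set it was -0.09 on Pi-deficient replicate 1, -0.90 and -1.09 on the others, and -0.07 to 0.36 under Pi sufficiency. By this mean, replicate 1 thus stood close to the Pi-sufficient arrays in each set. Without these 2 arrays, a fit chosen after the data were seen, 36 of the 45 genes were called, 26 repeated as lower and the median was -1.25. The mean of the 10 green tissue markers had the same pattern. It was 0.62 on Pi-deficient replicate 1 of the *hy5* set, -0.37 and -0.98 on the other Pi-deficient arrays and 0.51 to 0.77 under Pi sufficiency. On that replicate 1 the markers went both ways. *RBCS2B* (3.11) and *RBCS3B* (3.23) exceeded the set's highest Pi-sufficient arrays (1.55 and 1.96). *LHCB1.1* (0.43) and *PSBO1* (2.57) lay below its lowest (0.89 and 3.09). The *BBX32SRDX* set had 0.75 on Pi-deficient replicate 1, -0.17 and -0.34 on the others and 0.76 to 1.19 under Pi sufficiency. Of the 10 markers, 9 had a negative log2 change, 2 were called and 0 were at background. Without the 2 arrays numbered 1, 9 were called and 6 repeated as lower. The part of green tissue in the other results was not tested. The 8 root markers had a median of 0.13, and 0 were called, also without the 2 arrays (median 0.24). Leaving out these arrays also moved counts of other lists. Repeated higher genes went from 9 to 6 for transport, 11 to 10 for lipid remodelling and 2 to 1 for sulfur. Those of the root hair and glucosinolate lists each went from 3 to 2. Repeated lower genes went from 8 to 7 for iron, 1 to 0 for nitrogen and 2 to 4 for wall genes.

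The response of roots was set against that of the WT shoots under white light, of which there were 12 arrays in the same control sets. The test was the interaction of organ and Pi level over the 24 arrays, and it uses the root arrays on which the repeated genes were chosen. Over 22006 genes, 515 (2.34%) had a higher Pi response in roots and 1560 (7.09%) a lower one. Of the 473 repeated higher genes, 154 had a larger response in roots, 78 a smaller one, and 241 did not pass this test. In shoots, 363 of them were tested, and 232 rose, 3 fell and 128 were not called. Over the 20256 genes tested in shoots, 1485 (7.33%) rose and 253 (1.25%) fell. Of the 266 repeated lower genes, 166 had a lower response in roots, and of the 190 tested in shoots 21 fell, 12 rose and 157 were not called.

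Several PSI genes changed more in shoots than in roots. *PPCK2* had log2 changes of 1.45 in roots and 6.94 in shoots, a difference of -5.49 (SE 0.76, adjusted p = 4.12e-05). *RNS1* had 2.49 and 5.98, *PAP1* 1.54 and 3.85, *NPC4* 3.16 and 6.70, *PHT1;9* 3.67 and 6.54 and *PS2* 4.93 and 8.23, and each of these differences was called. *PHO1*, with -0.21 in roots, had 2.06 in shoots (difference -2.27, SE 0.24, adjusted p = 1.81e-06). *PECP1* differed the other way, with 10.18 and 6.71 (difference 3.47, SE 0.65). *IPS1*, *SPX1* and *SPX3* did not pass the test, with differences of -0.64, -0.69 and -1.78 (adjusted p = 0.695, 0.371 and 0.205).

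Other genes responded more in roots than in shoots. *JAZ10* had 3.39 in roots and -0.23 in shoots (difference 3.62, SE 0.64), *AOC1* 3.69 and 1.52, and *HOL2* (AT2G43920), a methyltransferase gene, 5.79 and 0.82 (difference 4.97, SE 0.36, adjusted p = 1.38e-08). *HOL2* lay between -4.50 and -2.28 on Pi-sufficient and between 1.48 and 2.81 on Pi-deficient root arrays. *UMAMIT17* had -6.82 in roots and -0.39 in shoots. Iron genes were split. *FRO2* fell in roots (-2.13) and had 1.23 in shoots (difference -3.36, SE 0.37). *BHLH101* had -3.24 in roots and -6.23 in shoots (difference 2.99, SE 0.54), and AT1G47400 had -4.31 and -7.78 (difference 3.47, SE 0.80). *FER1* rose in both organs, by 1.49 and 2.52.

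A further look at the same question came from 8 WT root arrays under blue or red light, 4 against 4 with 2 per light colour and Pi level, from plants 3 weeks old. They share no array with the 12. They were dimmer, with 57.0% to 66.7% of probes well above background, and 17206 genes were tested, of which 388 (2.26%) rose and 154 (0.895%) fell. Of the repeated higher genes, 280 were tested there, 273 had the same sign (97.5%) and 172 were called in the same direction. Of the repeated lower genes, 160 were tested, 156 had the same sign (97.5%) and 57 were called in the same direction. The opposite direction was called for 0 of either. Over the 17176 genes tested in both, 65.1% had the same sign. The median log2 change of these higher genes was 1.496, against 1.712 under white light, and that of the lower genes -1.15, against -1.55.

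**Figure D5:**
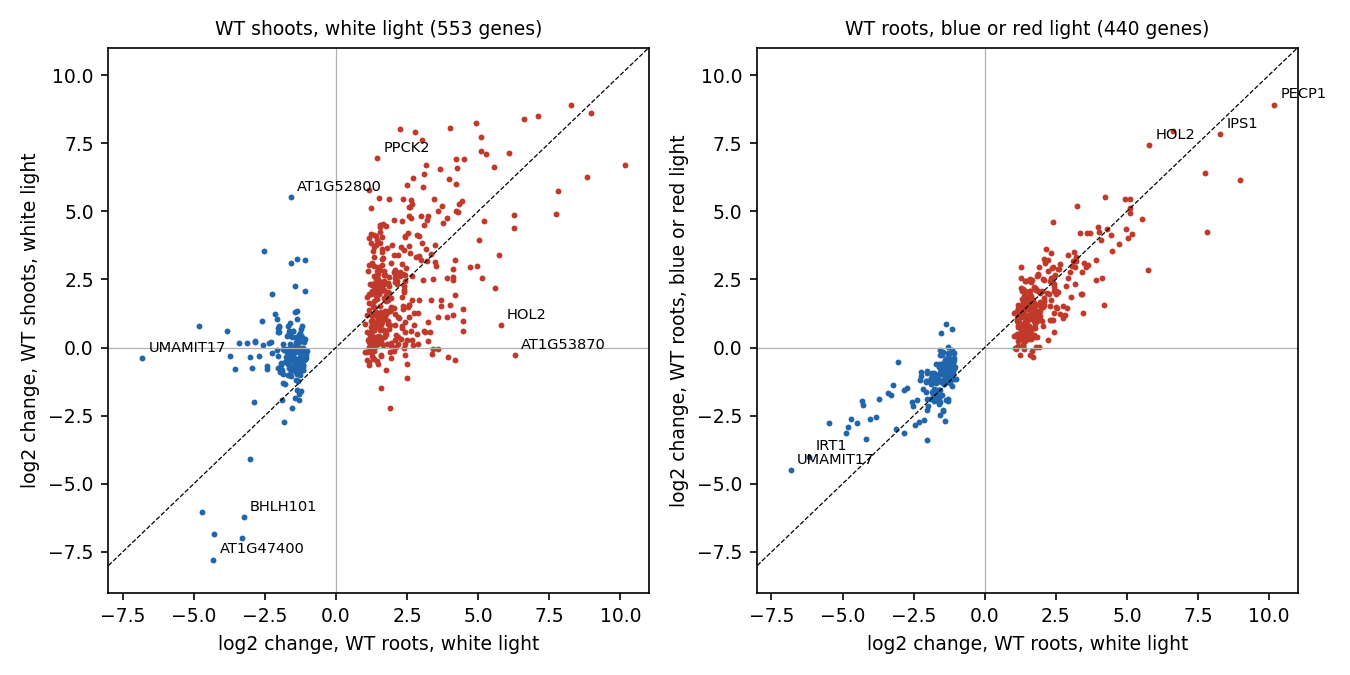
Log2 change of the repeated genes in WT roots under white light (x axes) against that in WT shoots under white light (left, y axis) and in WT roots under blue or red light (right, y axis); higher genes are red, lower genes are blue and the dashed lines mark equal change. Of the higher genes, 232 of 363 tested rose in shoots and 172 of 280 tested rose in the roots under blue or red light.

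Named genes with large changes under white light had the same sign in the roots under blue or red light. *PECP1* had a log2 change of 8.92 there, *SPX3* 7.95, *IPS1* 7.82, *HOL2* 7.42, *MGD3* 5.53 and *PS2* 5.46. *IRT1* had -4.00, *FRO2* -2.66 and *UMAMIT17* -4.50. *BHLH38* had -0.52 (adjusted p = 0.494), *BHLH101* -1.39 (adjusted p = 0.156) and *OPT3* -0.94 (adjusted p = 0.253), and none of these was called there. *PRP3*, called in both white-light sets, had 0.31 (adjusted p = 0.448), *Prx37* had 0.99 (adjusted p = 0.313) and *AT2G34930* 1.55 (adjusted p = 0.117). Each of these values is a Pi effect averaged over blue and red light, so a response under only blue or only red is diluted. For Pi-inducible peroxidase genes, the paper reports a decrease or no induction under red light. Differences between these arrays and the white-light arrays were not tested, as light, age and set changed together. The paper also describes its blue and red light as continuous, unlike the 16 h of light per day of the white-light plants.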

How the data were processed

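The scanner output of each array, as deposited by the authors, holds a processed signal, a fluorescence intensity that Agilent Feature Extraction had background-subtracted. The labels name version 9.1.3.1 of that software for all arrays, and the file headers name 9.1.3.1 or 11.5.1.1. The authors also deposited a table of processed values on the natural log scale, a scale found by comparison with the scanner output, which was used as an alternative. The TAIR10.1 reference annotation paired 36163 of 43603 probes (82.9%) with 26716 genes.

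Control spots and spots that the scanner software marked as outliers were left out, which left 145 of the genes tested without a value on 1 or more of the 12 arrays. From each log2 signal the array's 75th percentile was subtracted. The brightest probe on average stood for a gene, and the gene was tested where that probe passed the scanner's background test on every array of 1 or both Pi levels. The tools were limma 3.58.1 in R 4.3.3 (lmFit and eBayes, two-sided, Benjamini-Hochberg over all genes tested), with control set as a factor, and each set also alone. A gene was called at an adjusted p under 0.05 and a fold over 2 or under 0.5, the fold limits of the study's gene tables. The organ test had control set within organ as a factor, and the fit of the roots under blue or red light had light colour. The script was checked on simulated data. P-values measure the spread between these samples. The number of arrays limits the precision.

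Genes were named by a rule, namely the 12 highest and 12 lowest repeated genes with no overlap between Pi levels, the members of gene lists by role, up to 5 genes at each end of the test of the sets, and the 5 repeated genes most raised and most lowered relative to shoots. The members and lists were chosen with earlier results of these data known. At least-fold values compare group means, the dim group taken per array at the higher of its own signal and the lowest signal well above background.

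Same-numbered arrays of the 2 Pi levels lay on the same slide, and their deviations from the group means correlated with r between 0.330 and 0.583 over 6 pairs, while other numbers gave -0.433 to 0.034, so the replicate number was also fitted as a block. The alternatives were quantile normalization, the median of detected probes, normexp background with an offset of 50 (on the median spot signal), the deposited table, other filters on dim probes, the mean of probes, the line arrays added to the fit, other thresholds and leaving out each array. Those for the organ test and the roots under blue or red light included leaving out each array, chosen after the data were seen, as were the block for the latter and the fit of the white-light roots without Pi-deficient replicate 1 of both sets.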

Additional observations from a re-analysis of the deposited data

Results flagged for a closer look

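The difference of the Pi response between the control sets (*hy5* set minus *BBX32SRDX* set) passed the limma test for 6 genes, with adjusted p from 0.00581 to 0.0486. It was -2.91 on the log2 scale for *UMAMIT17* (-8.27 and -5.36) and 2.67 for *SK12* (5.05 and 2.39), both of them repeated genes. *FMO1* had 2.66 (2.73 and 0.08), and its call in the fit of both sets was lost with the replicate block (adjusted p = 0.0637). AT1G33055 had -2.68 (-3.27 and -0.59), AT1G17300 -1.78 (-1.35 and 0.43) and AT1G80450 1.59 (1.05 and -0.54). The software version of the arrays goes with the set and cannot be told apart from it.

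Among repeated genes, the Pi response was higher in roots than in shoots for *HOL2*, by 4.97 on the log2 scale, and for AT2G34930, by 4.66. AT1G53870, AT5G39630 and *CYP71B22* also passed this test, with fitted differences of 6.56, 4.48 and 4.27. These 3 were above background on 0 of 6 Pi-sufficient root arrays, so their fitted differences rest on signals at background and have no order. AT5G39630 was at least 9.07-fold and *CYP71B22* at least 3.95-fold higher in Pi-deficient roots. AT5G39630 was not tested in shoots alone. Lower responses in roots were those of AT1G52800 (-7.11), *UMAMIT17* (-6.43), *CYP93D1* (-6.21, above background on 4 of 6 Pi-deficient root arrays and not tested in shoots alone), *ALD1* (-6.07) and AT3G43110 (-5.78). AT1G52800 had -1.58 in roots and 5.53 in shoots, and *ALD1*, a gene of pipecolic acid synthesis in plant defence, had -2.52 and 3.56, so that each was called in opposite directions in the organs. AT3G43110 rose in both, by 2.24 and 8.02.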

How the results depend on the processing

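For the white-light roots, the counts for both sets, each set and the repeated genes kept within 1.5 times their value under both other normalizations, normexp, the deposited table, both other filters, the mean of probes, the replicate block and the added line arrays, and 0 calls changed direction. The organ test gave 2047 calls with quantile normalization and 2305 with the block, and the roots under blue or red light 435 with no filter and 536 with the block. The test of the sets had 6 calls, 1 with no filter, 1 at an adjusted p under 0.01, 11 with line arrays added, 0 without both Pi-deficient arrays numbered 1, and 4 with the block, of which 2 were shared. With no fold limit, 7197 genes were called in both sets together, 4702 in the *hy5* set, 2695 in the *BBX32SRDX* set, 1859 in both, and 949 under blue or red light. At an adjusted p under 0.01, the *BBX32SRDX* set gave 574 and 347 repeated. Of the settings other than thresholds and left-out arrays, normexp gave the lowest counts, 987 for the fit of both sets and 561 repeated. The repeated genes numbered 825 with the block. An unadjusted p under 0.05 held for 9310 genes in the fit of both sets.

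With 1 array left out, the fit of both sets gave 1339 to 1560 calls, the *hy5* set 1154 to 1580, the organ test 1842 to 2307, the roots under blue or red light 442 to 541 and the test of the sets 1 to 9. The *BBX32SRDX* set gave 638 to 1563 and the repeated genes 448 to 841, in each case lowest without Pi-deficient replicate 2 of the *BBX32SRDX* set and highest without its Pi-deficient replicate 1. *PHR1*, which was not called, ranged from -0.0189 to 0.0357 and was negative in 5 of these fits. Of the 739 repeated genes, 540 also repeated with normexp and 615 without both Pi-deficient arrays numbered 1. For single named genes, only the call in the fit of both sets was followed, not whether they stayed repeated. Of the genes named by the rule, 13 lost their call in the fit of both sets under 1 or more settings, and 0 of them were repeated genes. The block removed those of *NAS1* (adjusted p = 0.0508) and *FMO1*, and no filter those of *PHT1;8*, *NAS1* and *VSP2*. Normexp removed 8 (*G3Pp2*, *GDPD6*, *LRX1*, *MYB10*, *PAL3*, *PAP11*, *PHT1;8* and *PPC4*), the added line arrays *PAP11*, and an adjusted p under 0.01 6 (*FMO1*, *NAS1*, *PAL3*, *PAP11*, *PHT1;8* and *VSP2*). Without both arrays numbered 1, *NAS1* and *PHT1;8* were lost, and with single arrays left out 10 genes (*EXPA18*, *FMO1*, *G3Pp2*, *IRT2*, *LRX1*, *MYB10*, *NAS1*, *PAP11*, *PHT1;8* and *VSP2*). The causes of these shifts were not tested. Signals near background limit the folds of dim genes, and 33 repeated higher genes were at background on every array of a group.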

Other observations

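The following gene families were chosen after their values were seen and carry no test of their own. Over all genes tested, 2.22% rose and 1.25% fell in both sets. Of 26 tau-class glutathione transferase (*GSTU*) genes tested, which act in detoxification, 7 rose in both sets and 0 fell, and the median was 0.45. Next to *GSTU11*, *GSTU12* (AT1G69920) rose from between -5.44 and -4.02 to between -0.41 and 0.99, a log2 change of 4.95, *GSTU3* had 4.26 and *GSTU4* 3.17. *GSTU3* was above background on 2 of 6 Pi-sufficient arrays. Of 49 *UGT* glycosyltransferase genes, 7 rose and 0 fell (median 0.17), and of 63 *NAC* transcription factor genes 6 rose and 0 fell (median 0.10). *NAC019* had 3.52, with 2 of 6 Pi-sufficient arrays above background and overlapping groups. Cytochrome P450 genes went both ways, with 10 of 165 higher, 8 lower and a median of -0.01. The lower ones included *CYP735A1* and *CYP735A2* (AT1G67110, -2.03), which encode the cytokinin hydroxylases that make trans-zeatin and *CYP78A5* (-2.02).

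Of 9 *MLP* (major latex protein-like) genes, 4 fell and 0 rose in both sets, and the median was -1.19. *MLP328* (AT2G01520) had medians of 6.63 under Pi sufficiency and 5.12 under Pi deficiency. Of 35 *UMAMIT* genes, 3 fell and 1 rose (median -0.19), and *UMAMIT20*, next to *UMAMIT17* on the chromosome, had -2.83. Of 10 *SWEET* genes (median -0.14) 2 fell, *SWEET3* and *SWEET11* (AT3G48740, -3.41). Beta-glucosidase (*BGLU*) genes went both ways, with 4 of 29 tested higher, 2 lower and a median of 0.13. *BGLU11*, *BGLU21* and *BGLU22* rose by 1.72, 1.18 and 1.34, and *BGLU27* was at least 22.1-fold higher (mean signals -3.18 and -9.13), with 0 of 6 Pi-sufficient arrays above background. *BGLU47* and *BGLU7* had -2.55 and -1.49.

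Of the repeated genes that rose, 67 (14.2%) lay beside another tested gene that repeated in the same direction, and of those that fell 23 (8.65%). Over all genes tested, 2.22% rose and 1.25% fell in both sets. The share with such a neighbour expected from position alone was not computed. Such neighbours included *PP2-B13* and *PP2-B14* (3.60 and 3.69), *UGT76E1* and *UGT76E2* (3.61 and 1.06), and AT4G15660 to AT4G15690 (1.91, 2.19, 1.95 and 1.94). Whether neighbours share probe signal was not tested.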
